A study of Mus musculus with 2 samples.

Results

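The 32 genes described here encode proteins that build peroxisomes or run their lipid pathways. They were taken from a list of symbols, and each symbol matched 1 of the 55536 genes of the deposited tables. RNA came from the adrenal gland of female mice, 8 to 10 months old, of 1 group: a cross of 5xFAD, which carries human familial Alzheimer's disease transgenes under a neuronal promoter, with CAST, a wild-derived inbred strain. There were 2 libraries, numbered as biological replicates 1 and 2 and called mouse 1 and mouse 2. Both bear the same donor identifier, so nothing beyond the replicate number says that they were separate animals, and carriage of the transgenes by each animal was not analysed here. With a single group, the levels of the genes, their spread between the 2 libraries and the transcripts that carry them are what the data can show.

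Peroxisomes are organelles bounded by 1 membrane. Peroxins, the products of the Pex genes, insert their membrane proteins and bring folded enzymes into the matrix. Inside, beta-oxidation shortens very long and branched fatty acids that mitochondria handle poorly, alpha-oxidation removes a carbon from phytanic acid, and the first steps of ether lipid synthesis take place. The adrenal cortex makes steroid hormones from cholesterol, and it is one of the tissues injured in the peroxisomal disease adrenoleukodystrophy, in which very long fatty acids accumulate.

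Each library held 36558609 (mouse 1) and 32192201 (mouse 2) expected counts in genes, and the 32 genes took 47319 and 44535 of these, or 0.129% and 0.138%. Levels are in TPM (a measure per length, scaled to the same total in each library), as mean ± SD over both mice (n = 2). The labelled tissue was checked against its markers: all 9 genes of the steroid-producing cortex reached 1 TPM, led by Star at 5434 ± 435 TPM, Hsd3b1 at 5386 ± 407, Cyp21a1 at 4989 ± 192 and Cyp11b1 at 2784 ± 21.9. All 7 chromaffin cell genes of the medulla did so too, led by Chga at 727 ± 34.1 TPM, with Chgb at 641 ± 21, Pnmt at 258 ± 42.3 and Th at 246 ± 8.23. Fat cell genes were present at high levels, with 11 of 12 at 1 TPM or more in both mice. Whole gland was sequenced, so fewer cells of a type and less RNA per cell cannot be told apart.

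Peroxisome genes were expressed broadly and at moderate levels. Of the 32 genes, 31 reached 1 TPM in both mice, and Acox2 alone did not. Their median was 15.3 TPM, against 10.3 TPM for the 11913 nuclear protein-coding genes at 1 TPM or more in both mice, and 21 of the 32 stood above that value. By band, 18 genes lay between 10 and 50 TPM, 6 between 5 and 10, and 4 between 1 and 5. Above 50 TPM stood Scp2, Pex16 and Phyh.

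**Figure D1:**
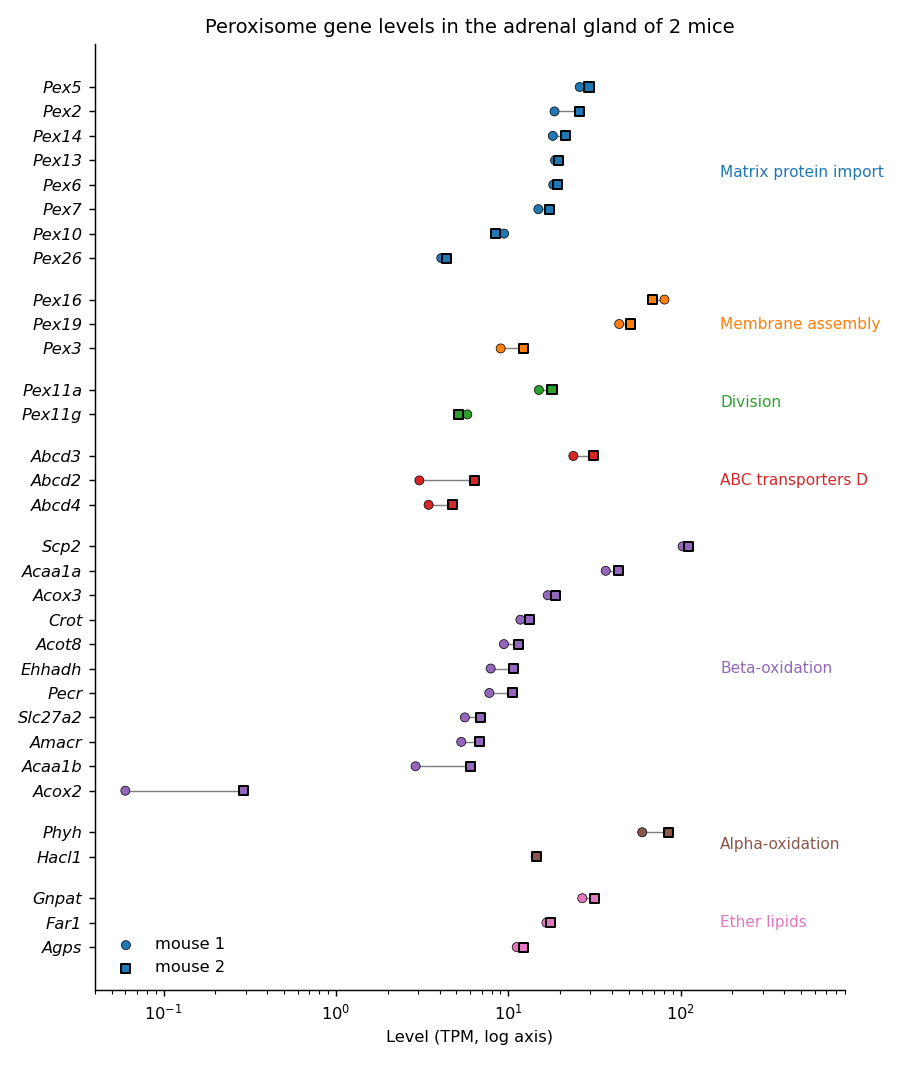
Deposited TPM (log axis) of the 32 genes in mouse 1 (circles) and mouse 2 (squares with a heavy outline), grouped by role and ordered by mean level within each role; a grey line joins the mice. Scp2 is highest at 102.79 and 111.38 TPM, and Acox2 is the only gene under 1 TPM.

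When all 32 were put in order of mean level, 23 of the 31 neighbouring pairs had overlapping values in the 2 mice. The other 8 pairs were apart, with every value of the upper gene above every value of the lower: Scp2 over Pex16, Phyh over Pex19, Pex19 over Acaa1a, Acaa1a over Gnpat, Pex7 over Hacl1, Hacl1 over Crot, Pex10 over Slc27a2, and Abcd4 over Acox2. With 2 mice, that order is a description.

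To compare the mice, expected counts were scaled by TMM, and a positive log2 ratio means higher in mouse 2. Of the 31 genes that averaged 10 counts or more, 20 had a ratio above 0 and 11 below. None was at least 2-fold higher and none at least 2-fold lower in mouse 2, where 1.15% and 1.81% of all 17666 tested genes were. Of the 11912 tested nuclear protein-coding genes at 1 TPM or more in both mice, only 20 were higher and 28 lower by that much. An exact two-sided binomial test on the rounded counts, adjusted over all tested genes at 0.05, asks whether a gene differs by more than counting noise. It compares these 2 libraries only and has no replicate check. By it, 9 of the 31 were higher in mouse 2, beside 10.4% of all tested genes, and 2 were lower, beside 11.0%. Scaling by total counts gave 14 higher and 1 lower, beside 17.0% and 7.67% of all genes. Scaling by spike-in RNA gave 7 higher and 3 lower, beside 8.59% and 13.2%. With no filter on counts, 6 were higher and 2 lower, beside 6.29% and 7.22%. Among genes with a mean of 100 counts or more, a filter that kept all 31, 10 were higher and 3 lower, beside 13.4% and 14.3%. The calls of Pecr, Pex3, Slc27a2 and Pex10 each ended under at least 1 of the alternatives, as given at each gene. The median log2 ratio of the 31 genes was 0.06, and that of all tested genes was -0.0011.

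**Figure D2:**
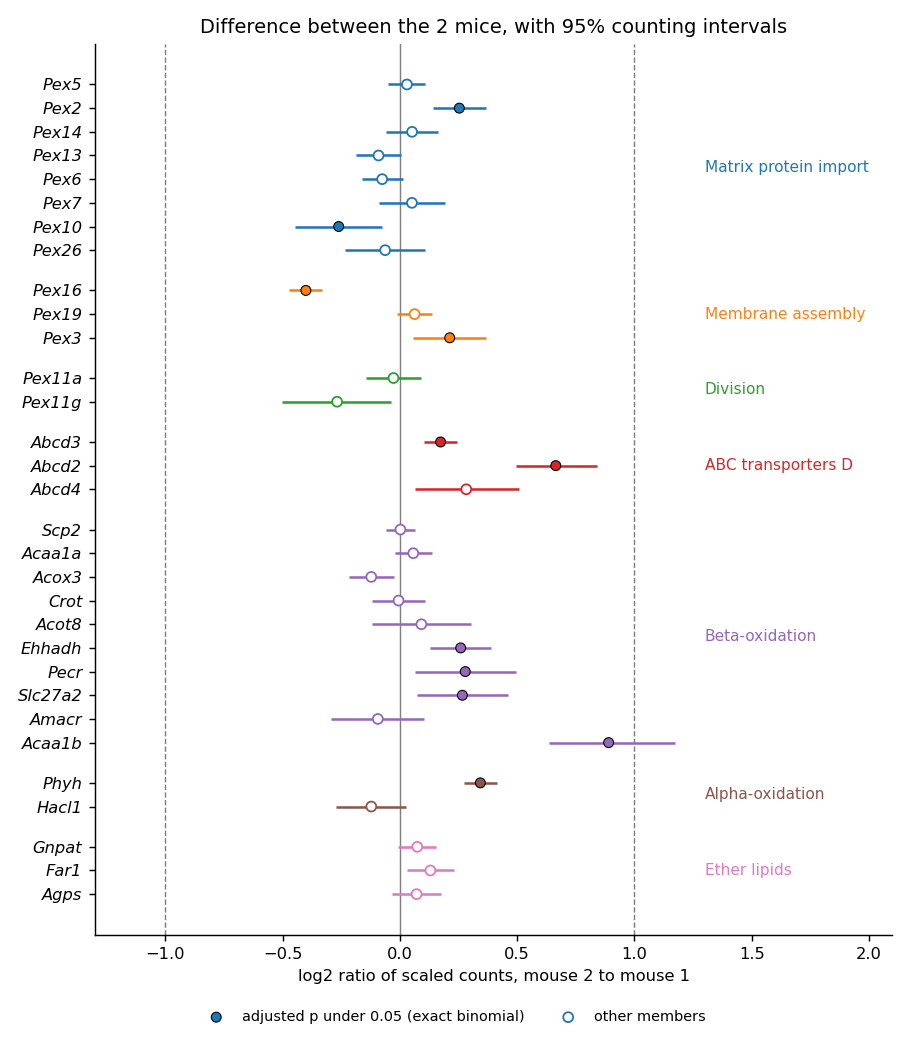
Log2 ratio of TMM-scaled expected counts, mouse 2 to mouse 1, of the 31 tested genes with 95% exact (Clopper-Pearson) counting intervals; filled points have an adjusted p under 0.05 in the exact binomial test, and dashed lines mark 2-fold. Acaa1b and Abcd2 lie farthest to the right at 0.89 and 0.66, and Pex16 farthest to the left at -0.40.

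TPM and scaled counts did not place the genes alike. In TPM, 29 of the 32 were higher in mouse 2, the exceptions being Pex16, Pex10 and Pex11g. The median log2 ratio of deposited TPM was 0.16 over all tested genes and 0.23 over the 31. Nuclear protein-coding genes held 29.5% of TPM in mouse 1 and 32.3% in mouse 2, and 8 of the genes were higher in TPM but lower in scaled counts. Differences between the mice are therefore given below in scaled counts, and TPM serves for levels within a mouse.

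Matrix protein import was represented by 8 genes, from 4.25 to 27.7 TPM. Pex5, the receptor for enzymes with the common carboxyl-terminal targeting signal (chromosome 6, 124396816 to 124415067, mm10), stood highest at 26.0 and 29.43 TPM. Pex7, the receptor for the rarer amino-terminal signal, lay lower at 16.2 ± 1.73 TPM, and both mice were below both Pex5 values. The docking proteins Pex14 and Pex13 were close to each other at 19.8 ± 2.28 and 19.1 ± 0.601 TPM, and their values overlapped. Pex6, the ATPase that pulls used receptors out of the membrane, had 18.8 ± 0.82 TPM, whereas Pex26, which anchors it there, had only 4.25 ± 0.226. The ubiquitin ligase subunits Pex2 and Pex10 differed in level, at 22.2 ± 5.13 and 8.96 ± 0.707 TPM.

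Those ligase subunits also differed between the mice in opposite directions. Pex2 had 1255 counts in mouse 1 and 1363 in mouse 2, a log2 ratio of 0.25 (exact binomial test, adjusted p = 9.65e-05). Pex10 had 549 and 417 counts, a log2 ratio of -0.26 (exact binomial test, adjusted p = 0.0277). That call ended under total count scaling (exact binomial test, adjusted p = 0.0831) and in the second quantification (exact binomial test, adjusted p = 0.07). The other 6 import genes did not pass, with log2 ratios of 0.05 for Pex14, 0.05 for Pex7, 0.03 for Pex5, -0.06 for Pex26, -0.08 for Pex6 and -0.09 for Pex13.

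Membrane assembly had a median of 47.7 TPM over 3 genes, and alpha-oxidation 43.6 over 2. In the second quantification their order was the other way, at 36.6 and 41.3 TPM. Pex16, a membrane protein that brings other membrane peroxins to the peroxisome (chromosome 2, 92374676 to 92381217), stood at 80.68 TPM in mouse 1 and 68.6 in mouse 2. It was lower in mouse 2 also in counts, 3929 against 2710, with a log2 ratio of -0.40 (interval -0.47 to -0.33; exact binomial test, adjusted p = 2.84e-27). Pex19, the chaperone that carries newly made membrane proteins, had 44.06 and 51.31 TPM, and its log2 ratio of 0.06 passed only under total count scaling (exact binomial test, adjusted p = 0.0194). Pex3, which receives Pex19 at the membrane, was the lowest at 10.6 ± 2.25 TPM and was higher in mouse 2 (663 and 700 counts, log2 ratio 0.21; exact binomial test, adjusted p = 0.0345). The Pex3 call ended under spike-in scaling (exact binomial test, adjusted p = 0.063) and with no count filter (exact binomial test, adjusted p = 0.0598). The 3 genes thus held an unequal level in the same libraries, with Pex3 below the others in each mouse.

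Of the division factors, Pex11a, which elongates peroxisomes, had 15.07 and 17.95 TPM, 2.6 and 3.47 times the level of its relative Pex11g in the same mouse. Pex11g had 5.79 and 5.17 TPM, and 41.1% of its exon bases are shared with a gene on the opposite strand, Gm44775. Neither passed the test between the mice, with log2 ratios of -0.03 and -0.27.

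The ABC transporters of subfamily D include Abcd2 and Abcd3, which carry fatty acyl-CoA into the peroxisome, and Abcd4, which carries vitamin B12 out of lysosomes despite its family name. Abcd3 (chromosome 3, 121758774 to 121815302) was the main one, with 23.88 TPM in mouse 1 and 31.13 in mouse 2. Abcd2 (chromosome 15, 91145871 to 91191799) had 3.05 and 6.41 TPM, so Abcd3 was 7.83 times as high in mouse 1 and 4.86 times in mouse 2. Abcd4 had 4.08 ± 0.898 TPM. All 3 had ratios above 0, and 2 of them passed the test.

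Abcd2 had 475 counts in mouse 1 and 687 in mouse 2, a 1.59-fold difference (log2 ratio 0.66, interval 0.50 to 0.84; exact binomial test, adjusted p = 2.13e-13). Abcd3 had 3090 and 3174 counts, with a smaller log2 ratio of 0.17 (exact binomial test, adjusted p = 3.1e-05). Abcd4 had 320 and 355 counts and missed the threshold (log2 ratio 0.28; exact binomial test, adjusted p = 0.0511), which it passed under total count scaling and among genes with 100 counts or more (exact binomial test, adjusted p = 0.0159 and 0.0454).

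Beta-oxidation and the supply and release of its acyl-CoA formed the largest role, with 11 genes from 0.175 to 107 TPM. Its oxidases, which start the cycle, were far apart. Acox3, for branched acyl-CoA, had 16.96 and 18.75 TPM. Acox2, for bile acid intermediates and branched chains (chromosome 14, 8225511 to 8259353), had 0.06 and 0.29 TPM on 6 counts in each mouse, too few for the test between the mice. Reads assigned to Acox2 fell on the full-length transcript in mouse 1 (5.95 counts) and on the retained-intron transcript Acox2-203 in mouse 2 (5 counts), so its protein-coding transcript was listed at 0 in mouse 2.

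Of the later steps, Acaa1a and Scp2 stood above Acox3 in each mouse, and Ehhadh lay between Acox3 and Acox2. Ehhadh, the bifunctional enzyme of the middle steps, had 7.91 TPM in mouse 1 and 10.69 in mouse 2, and its counts of 928 and 1012 passed the test (log2 ratio 0.26; exact binomial test, adjusted p = 0.000791). The thiolase Acaa1a, which cleaves off acetyl-CoA (chromosome 9, 119339676 to 119350299), had 36.81 and 43.72 TPM, with a log2 ratio of 0.06 that passed only under total count scaling (exact binomial test, adjusted p = 0.0388). Scp2, whose gene gives both a thiolase for branched chains and a lipid carrier protein (chromosome 4, 108043839 to 108144998), was the highest of all 32 genes at 102.79 and 111.38 TPM. Its counts of 4583.95 and 4181.51 gave a log2 ratio of 0.002, the one nearest 0 among the 31 genes.

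The helper enzymes lay between 6.09 and 12.6 TPM. Crot, which turns shortened acyl-CoA into carnitine esters for export, had 12.6 ± 1.12 TPM, and Acot8, a thioesterase that releases free acids, had 10.5 ± 1.45. Pecr, which reduces an unsaturated acyl-CoA, had 9.17 ± 1.98 TPM and was higher in mouse 2 (log2 ratio 0.28; exact binomial test, adjusted p = 0.0464), a call that ended under spike-in scaling, over nuclear protein-coding genes, with no count filter and in the second quantification (exact binomial test, adjusted p from 0.0519 to 0.0907). Slc27a2, which activates very long chain acids, had 6.27 ± 0.948 TPM and was higher in mouse 2 as well (log2 ratio 0.27; exact binomial test, adjusted p = 0.0314), a call that ended with no count filter (exact binomial test, adjusted p = 0.0529). Amacr, the racemase that makes branched acids fit for oxidation, had 6.09 ± 1.07 TPM. Amacr, Crot, Acot8 and Acox3 did not pass, with log2 ratios of -0.09, -0.0058, 0.09 and -0.12. Acox3 passed as lower under spike-in scaling, over nuclear protein-coding genes and among genes with 100 counts or more (exact binomial test, adjusted p from 0.0206 to 0.043).

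Acaa1b is a near copy of Acaa1a on the same chromosome (chromosome 9, 119148023 to 119157093), and reads were divided between them by the authors' model. Their coding sequences have 1272 bases each and align with 44 mismatches and no gap, 96.5% identity, and the longest identical run is 327 bases. The 120 coding bases with the densest differences, bases 433 to 552, hold 14 mismatches, shown in capitals. They were read from the GENCODE M21 transcripts and lie in mm10 between 119344495 and 119347736 (plus strand) and between 119150898 and 119153683 (minus strand), ends that enclose introns.
Acaa1a-201: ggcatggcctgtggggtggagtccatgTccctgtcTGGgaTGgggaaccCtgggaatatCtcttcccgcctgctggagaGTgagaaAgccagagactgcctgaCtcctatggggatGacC
Acaa1b-201: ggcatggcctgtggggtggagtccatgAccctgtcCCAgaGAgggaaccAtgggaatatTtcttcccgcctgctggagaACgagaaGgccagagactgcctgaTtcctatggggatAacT

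Over the whole coding sequence the median gap between mismatches was 16 bases, and a read that lies within an identical run can match both genes. Acaa1b had 184.41 counts in mouse 1 and 312.91 in mouse 2, with a deposited posterior SD of 7.99 and 9.89 counts from that division. It was 1.85-fold higher in mouse 2 (log2 ratio 0.89, interval 0.63 to 1.17; exact binomial test, adjusted p = 2.49e-10), the largest difference of the 31 genes, at 2.9 and 6.05 TPM. The level of Acaa1a was 12.7 times that of Acaa1b in mouse 1 and 7.23 times in mouse 2. In the second quantification the log2 ratio was 0.72 for Acaa1b and 0.08 for Acaa1a.

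Alpha-oxidation was carried by a high and a moderate gene. Phyh, the hydroxylase that acts first on phytanoyl-CoA (chromosome 2, 4919019 to 4938730), had 59.92 TPM in mouse 1 and 85.59 in mouse 2. Its counts of 3195 and 3692 gave a log2 ratio of 0.34 (interval 0.27 to 0.41; exact binomial test, adjusted p = 4.02e-21). Hacl1, the lyase of the next step, had 14.43 and 14.59 TPM, and its log2 ratio of -0.12 did not pass, though in the second quantification it did, at -0.20 (exact binomial test, adjusted p = 0.0247). Hacl1 shares 31.1% of its exon bases with the same-strand gene Gm49387, to which no counts were assigned in either mouse. The 815 and 682 counts of Hacl1 had a deposited posterior SD of 10.53 in mouse 1 and 29.0 in mouse 2. The exact binomial test does not include that SD.

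The 3 genes of ether lipid synthesis lay between 11.7 and 29.2 TPM. Gnpat, which adds the first acyl chain, had 29.2 ± 3.24 TPM. Far1, which makes the fatty alcohol, had 17.1 ± 0.58, and Agps, which swaps the acyl chain for that alcohol, had 11.7 ± 0.7. Their log2 ratios were 0.07, 0.13 and 0.07, and none passed the exact binomial test (adjusted p = 0.212, 0.0527 and 0.373). Under total count scaling Gnpat and Far1 passed the exact binomial test (adjusted p = 0.0166 and 0.00364), and Gnpat did so in the second quantification as well (adjusted p = 0.00649).

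Both genes with the largest differences, Acaa1b and Abcd2, were higher in the mouse with more fat cell RNA. The 12 fat cell genes summed to 1736.7 TPM in mouse 1 and 2896.2 in mouse 2, sums that also hold the overall shift in TPM given above. All 12 had ratios above 0, from 0.27 to 0.87 with a median of 0.66. Of them 11 passed the exact binomial test as higher, beside 10.4% of all tested genes. The leading ones were Cfd at 644 ± 156 TPM, Fabp4 at 448 ± 168, Car3 at 363 ± 178 and Ucp1 at 209 ± 95.5, and none of the 12 was at 0. The part of fat cells in the differences of Acaa1b, Abcd2 and the other genes was not tested.

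Other marker lists differed between the mice in either direction. The cortex genes had a median log2 ratio of -0.09, with 2 of 9 above 0 (range -0.63 to 0.08), and all 7 chromaffin genes were below 0 (median -0.19). In TPM the cortex list summed to 21982.8 in mouse 1 and 23244.3 in mouse 2, the opposite direction to its median in scaled counts, and the chromaffin list summed to 2090.6 and 1963.9. Of the 9 hepatocyte genes, 3 reached 1 TPM in both mice. Cyp2e1 led with 107 ± 29.2 TPM, while Ahsg, Alb and Apoa2 lay between 1.04 and 2.2 TPM. Alb was also the one of them at least 2-fold apart, with 36 and 113 counts.

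Kidney genes were almost absent: none of 9 reached 1 TPM. Slc34a1, Slc22a6, Slc5a2, Umod and Kap had 0 counts in both mice, below a floor of 3 counts (0.0821 and 0.0932 CPM). Aqp2 led with 0.22 TPM on 16 and 6 counts, Lrp2 had 0.095, Slc22a12 had 0.045 and Miox had 0.02. All 5 red blood cell genes were lower in mouse 2, with Hba-a1 and Hba-a2 at log2 ratios of -1.11 and -1.06, and summed to 747.2 and 408.5 TPM. Hbb-bs and Hbb-bt averaged 192 and 22.8 TPM. All 7 macrophage genes, led by Cd74, C1qa, C1qb and C1qc, had ratios above 0 (median 0.10). So did all 6 endothelial genes, led by Plvap, Emcn, Kdr and Pecam1 (median 0.07). Their part in the peroxisome genes' differences was not tested either.

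Related pathways were read from wider lists. Of 53 other peroxisome genes, 42 reached 1 TPM in both mice and 48 were tested. Of those, 34 had ratios above 0, none was 2-fold apart, and the median was 0.07. By the exact binomial test 11 were higher and 2 lower, beside 10.4% and 11.0% of all tested genes. The most abundant were Idh1, which makes NADPH, at 198 ± 22.9 TPM, the isomerase Ech1 at 125 ± 14, catalase (Cat), which breaks down hydrogen peroxide, at 111 ± 11.0, and Gstk1 at 96.7 ± 25.1.

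Mitochondrial beta-oxidation was more abundant, with a median of 106 TPM over 21 genes. Hadhb, Acadm, Echs1 and Hadha led at 212 ± 30.6, 175 ± 13.0, 138 ± 6.79 and 132 ± 15.0 TPM. Its median log2 ratio was 0.12. By the exact binomial test 12 genes were higher and 2 lower, beside 10.4% and 11.0% of all tested genes. With high counts small differences pass, as for Hadha on 13104 and 12490 counts (log2 ratio 0.07; exact binomial test, adjusted p = 0.00262). All 8 PPAR factors and partners, transcription factors and coactivators that govern peroxisomal and fat genes, had ratios above 0 (median 0.44). Of them 5 passed as higher, beside the same 10.4% of all tested genes. Rxrb, Ppard, Rxra and Pparg were the most abundant at 18.5, 15.9, 15.3 and 8.23 TPM. Ppargc1a, a coactivator of mitochondrial and brown fat genes, was the one past 2-fold, with 124 counts in mouse 1 and 262 in mouse 2 (log2 ratio 1.20; exact binomial test, adjusted p = 5.09e-14).

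**Figure D3:**
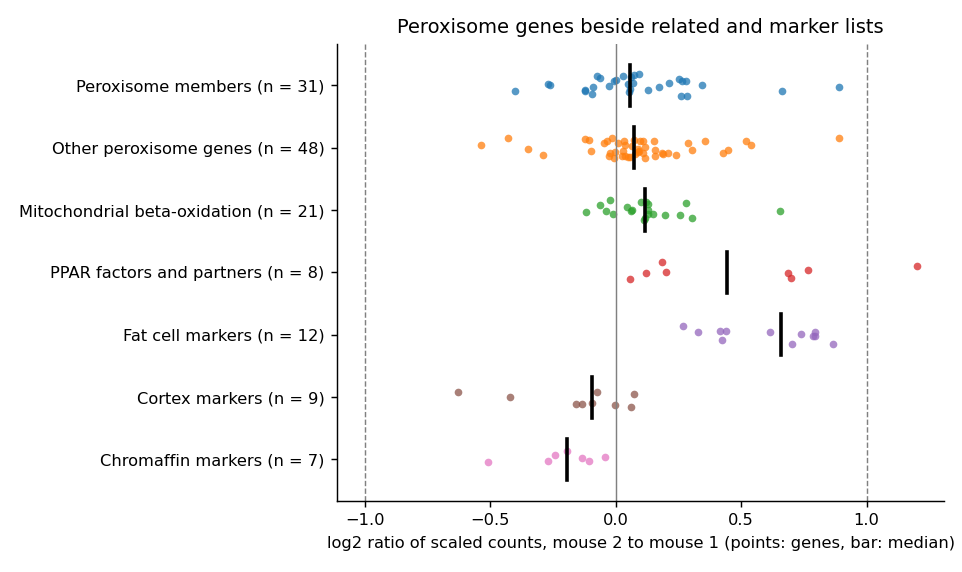
Log2 ratio of TMM-scaled expected counts, mouse 2 to mouse 1, for each tested gene (points) of the 31 peroxisome genes and 6 other lists; bars are medians and dashed lines mark 2-fold. The peroxisome genes centre at 0.06, mitochondrial beta-oxidation at 0.12 and the fat cell genes at 0.66, with every fat cell gene above 0.

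Transcripts were examined next, since a gene's level can rest on forms that make no protein. In every gene the transcript with the largest mean share was protein-coding. That share exceeded 50% in 24 of 32 genes and 90% in 6, with a median of 66.0%. Ehhadh-201 carried 100% in both mice, Acaa1b-201 97.36% and 98.65%, and Phyh-201 96.85% and 97.22%. Transcripts annotated as not protein-coding took a median of 18.7%, and 20% or more in 15 genes.

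Scp2 was divided between its products. Scp2-202, of 143 codons, the lipid carrier alone, had 49.25 TPM in mouse 1 and 47.12 in mouse 2. Scp2-201, of 547 codons, the form with the thiolase, had 22.87 and 27.16 TPM. The short form was thus 2.15 and 1.73 times as high, and 2.68 and 2.43 times in the second quantification. Their start sites lie 47113 bases apart. The noncoding Scp2-203 took 19.19% and 15.48% of the gene at first but 0.582% and 0% in the second quantification, so that form depended on the method.

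Pex5 also makes a pair of proteins, and the longer one, with 37 more codons, is the form that Pex7 binds. Transcripts of 602 codons held 54.6% of Pex5 in mouse 1 and 37.9% in mouse 2, and those of 639 codons held 26.1% and 44.2%. By the second quantification the shorter form held 35.8% and 35.1% and the longer one 34.9% and 47.4%. The longer form was the larger in mouse 2 by both methods, and in mouse 1 the order was clear by the first only.

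The lead transcript was the same in both mice for 29 of 32 genes, and differed for Acox2, Far1 and Pex5. The same lead appeared in the second quantification for 25, the others being Acox2, Amacr, Far1, Hacl1, Pex13, Pex2 and Pex5. Pex13-201, the full protein, held 56.24% and 56.9% of its gene, but 26.1% and 25.6% in the second quantification. There Pex13-203, a 367-base transcript subject to nonsense-mediated decay, took 55.1% and 53.2%. Amacr-201 held 82.18% of Amacr in mouse 1 and 62.86% in mouse 2, and in the second quantification it held 50% and 48.9%. In Pex16, Pex16-201 held 69.51% and 71.58% and the noncoding Pex16-204 25.51% and 24.27%.

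Abcd2-202, a 320-base noncoding transcript, took 23.44% of Abcd2 in mouse 1 and 41.69% in mouse 2, on only 6.4 and 19.33 counts. Abcd2-201, which encodes the transporter, took 68.91% and 58.31%. In the second quantification Abcd2-201 took 64.6% and 44.3% and Abcd2-202 29.3% and 55.7%, so the noncoding form led in mouse 2. By deposited TPM the log2 ratio of Abcd2 was 1.07 where scaled counts gave 0.66. Deposited TPM put Acaa1b at 1.06, so both would be called at 2-fold by that measure.

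**Figure D4:**
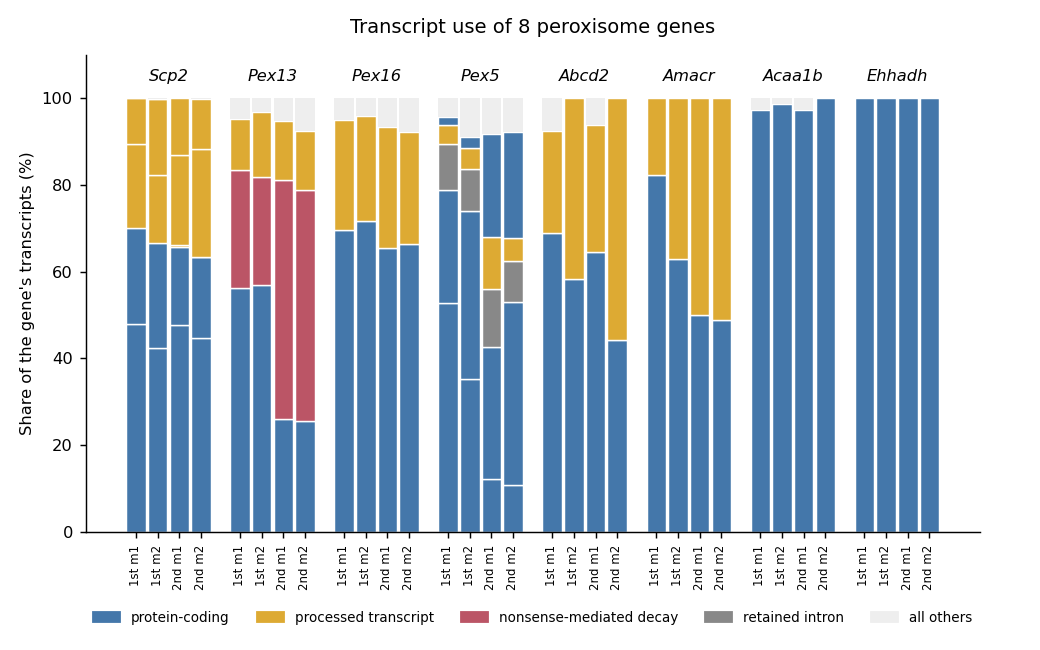
Share of each gene's transcripts (percent of the gene, stacked to 100) for 8 genes, in the first (1st) and second (2nd) quantification of mouse 1 (m1) and mouse 2 (m2); colours give the annotated type, white lines part the transcripts, and pale grey is all others. Pex13 changes its leading transcript between quantifications, while Ehhadh and Acaa1b rest on 1 coding transcript throughout.

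Gene levels were closer between the methods than transcript shares. Of 31 genes at 1 TPM or more, none was at least 2-fold higher or lower in the second quantification, where 0.710% and 4.13% of 13524 genes of all types were. Among protein-coding genes alone, 106 of 12121 were apart in either direction, or 0.875%. Within 1.25-fold lay 29 of them. Pex13 was 1.89-fold higher there, at 35.2 and 37.2 TPM, and Pex19 was 0.767 of its first level, at 32.8 and 40.5 TPM.

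Several genes overlap others in the annotation, which matters because the use of strand in counting is not given in the sources used here. Of the 32, 16 share exon bases with another gene, 13 of them on the opposite strand only. Pex14 shares 28.3% of its exon bases with Gm17029, Acot8 12.3% with Snx21, Acaa1b 11.4% with Dlec1 and Pex16 7.15% with Large2. Some partners had more counts than the peroxisome gene and some fewer. Snx21 had 752 and 724 counts against 378 and 367 for Acot8, and Btd, which shares 2.18% of the exon bases of Hacl1, had 1725 and 1405 against 815 and 682. Dlec1 had 75 and 53 counts and Large2 62 and 25, both fewer than the gene they overlap.

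Promoter sequence was compared in windows of 300 bases, 250 before to 50 after each start, from RefSeq on GRCm38.p6. Windows were found for 27 genes, 32 in all. Windows with over 50% GC and a CG ratio above 0.6 (CG pairs observed over those that the base content gives) made up 20 of the 32, or 62.5%, against 46.5% of 20150 windows of protein-coding genes. The median CG ratio was 0.795 against 0.588. A set of 4 windows shows the range, with each CG pair in capitals: those with the fewest and the most CG pairs relative to their base content, and those of the near copies Acaa1a and Acaa1b. They are at chr14:8258790-8259089 (Acox2, minus), chr3:121815253-121815552 (Abcd3, minus), chr9:119341044-119341343 (Acaa1a, plus) and chr9:119157044-119157343 (Acaa1b, minus).
Acox2: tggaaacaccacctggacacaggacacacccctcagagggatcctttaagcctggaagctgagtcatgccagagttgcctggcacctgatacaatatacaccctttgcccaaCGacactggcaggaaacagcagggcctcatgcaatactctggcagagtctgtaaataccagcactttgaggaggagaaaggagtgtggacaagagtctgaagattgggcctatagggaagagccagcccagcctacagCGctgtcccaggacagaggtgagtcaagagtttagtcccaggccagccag
Abcd3: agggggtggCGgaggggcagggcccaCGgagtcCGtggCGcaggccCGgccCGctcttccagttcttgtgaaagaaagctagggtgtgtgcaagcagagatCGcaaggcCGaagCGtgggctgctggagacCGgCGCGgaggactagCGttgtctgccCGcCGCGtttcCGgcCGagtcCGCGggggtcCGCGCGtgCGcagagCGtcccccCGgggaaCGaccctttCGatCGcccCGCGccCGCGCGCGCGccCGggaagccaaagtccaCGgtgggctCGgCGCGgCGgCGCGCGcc
Acaa1a: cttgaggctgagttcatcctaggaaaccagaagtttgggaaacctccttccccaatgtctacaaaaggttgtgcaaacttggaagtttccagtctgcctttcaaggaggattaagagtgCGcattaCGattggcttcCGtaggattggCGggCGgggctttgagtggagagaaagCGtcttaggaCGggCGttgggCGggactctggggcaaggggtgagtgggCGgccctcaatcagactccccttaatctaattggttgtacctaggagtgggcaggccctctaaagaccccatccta
Acaa1b: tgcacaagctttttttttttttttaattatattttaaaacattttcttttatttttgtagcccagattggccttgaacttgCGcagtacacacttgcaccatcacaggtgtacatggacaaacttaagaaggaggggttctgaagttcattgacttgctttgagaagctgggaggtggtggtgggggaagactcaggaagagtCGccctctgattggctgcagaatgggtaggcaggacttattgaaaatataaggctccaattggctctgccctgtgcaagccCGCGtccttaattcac

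The Acox2 window holds 2 CG pairs (ratio 0.0915) and belongs to the lowest gene, at 0.175 TPM. That of Abcd3 holds 45 (ratio 1.12), at 27.5 TPM. Acaa1a has 10 (ratio 0.481) and Acaa1b 4 (ratio 0.284), so the near-identical coding sequences lie behind unlike windows, at 40.3 and 4.47 TPM. Whether ratio and level go together across the genes was not tested. Phyh had a ratio of 0.495 at 72.8 TPM, while Slc27a2 and Pex11g had 0.793 and 0.84 at 6.27 and 5.48 TPM. The motif AGGNCANAGGNCA, a direct repeat bound by PPAR and RXR, was searched on both strands; it was in 0 of the 32 windows and in 0.347% of the 20150.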

How the data were processed

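Total RNA libraries were made from 300 ng of RNA per sample with ERCC spike-ins and a directional kit, per the labels. The deposited gene tables hold expected counts, which are model estimates and need not be whole, with a posterior SD of each count, TPM over all rows and FPKM, per the file headers. Transcript tables give the percent of the gene, per the file headers. Another deposited transcript table gives estimated counts and TPM from a second quantification, which used the reads and an index of transcripts. Build mm10 and GENCODE M21 come from the deposited text files; the alignment and quantification tools were not given in the sources used here. The reference is of a strain other than CAST.

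The genes and lists were chosen with earlier results of these data known. All 32 are named; of each other list, the 4 of highest mean TPM, every gene 2-fold apart and cell type markers at 0 in both libraries. Sequences shown and the Pex5 and Scp2 forms were picked after their values were seen. Rows naming no gene (0.503% and 0.527% of counts) were left out of depth and tests. Log2 ratios used TMM scaling in edgeR 4.0.16 under R 4.3.3, and the prior count was 2; the 17666 genes tested averaged 10 counts or more. Counts were rounded for the exact binomial test, with Benjamini-Hochberg adjustment at 0.05. Intervals cover counting error only, since there is 1 library on each side of a ratio. The reads lack molecular identifiers. The quantifications were compared on TPM plus 0.1 among genes at a mean of 1 TPM or more. Alternatives included DESeq2 1.42.0 size factors, total count and ERCC scaling, other filters and priors, FPKM, TPM over nuclear protein-coding genes, the second quantification and each mouse alone; deposited TPM ratios were added after seeing the data. The test was tried on simulated data. Python 3.11.15, numpy 2.4.6, pandas 2.3.3, scipy 1.17.1 and Biopython 1.88 did the rest. Protein sequences were not used here.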

Additional observations from a re-analysis of the deposited data

How the results depend on the processing

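No paired analysis was possible because the labels give a single group. No gene was 2-fold apart in either direction under the planned scalings, filters, prior counts and second quantification; by deposited TPM, chosen after seeing the data, 2 were higher. Total count scaling gave 14 genes higher and 1 lower by the exact binomial test, where it called 4356 of all genes against 3771; spike-in scaling gave 7 and 3, with 3842 of all genes called, and no count filter gave 6 and 2, with 3572 called. Over the other settings 8 to 10 were higher and 2 or 3 lower. The median log2 ratio was 0.23 by deposited TPM and between 0.04 and 0.11 otherwise. The median level was 16.0 TPM without mouse 1 and 14.7 without mouse 2, 49.7 when TPM was rescaled to nuclear protein-coding genes, and 16.3 in FPKM. The number of genes at 1 TPM was 31 with either mouse alone.

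Among all genes, those 2-fold higher were 112 over nuclear protein-coding genes, 1346 with no count filter, 28 at a mean of 100 counts or more and 511 by deposited TPM. Those 2-fold lower were 141, 1310 and 37 under the first 3 of these. The filters change which genes are tested; other causes were not tested. For single genes, no log2 ratio moved beyond its counting interval under the scalings, filters, prior counts and second quantification tried, and 21 of 31 moved up by deposited TPM. Levels moved beyond 1 SD for 9 of 32 in the second quantification, 4 up and 5 down, and for 6 in FPKM. Leading transcript shares moved for 19 of 32 in the second quantification, 18 of them down.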
